A study of Homo sapiens with 9 samples.

Results

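Immune checkpoint ligands are surface or secreted proteins through which a tumour cell restrains T cells, NK cells and macrophages. Transcripts of 9 of them, chosen by name, were read from the 59453 gene names in the count table: CD274 (PD-L1), PDCD1LG2 (PD-L2), CD276 (B7-H3), CD47, VSIR (VISTA), PVR (CD155), NECTIN2 (CD112), LGALS9 (galectin-9) and NT5E (CD73). RNA-Seq had been performed on MDA-MB-231, a human triple-negative breast cancer cell line, in 3 groups of 3 libraries. The groups were untreated cells, cells treated with TEPA for 8 h and cells treated with TEPA for 24 h. TEPA is a copper chelator, and the study identifies it in conflicting ways. Its reagent section gives the dihydrochloride of trientine. Its introduction and abbreviation list spell out TEPA as another compound, and its discussion calls trientine an analogue of TEPA. Which compound was used cannot be settled here. The sample labels give the TEPA concentration as 8 mM, whereas the RNA sequencing methods give 4 mM. All cells grew in DMEM with 10% serum. A single untreated group served for both times, so time in culture and time in TEPA cannot be told apart, and the comparisons of 8 h and 24 h with untreated cells share their controls. Nothing in the labels says that replicates came from separate cultures, and p-values here measure only the spread between these libraries.

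PD-L1 on a tumour cell binds PD-1 on T cells and dampens their activation, and PD-L2 is the second ligand of the same receptor. The CD274 gene is switched on mainly by interferon-gamma through JAK kinases and IRF1, and its protein is protected from breakdown at the membrane by CMTM6. CD47 is the "don't eat me" signal read by SIRPA on macrophages, PVR and NECTIN2 engage the inhibitory receptor TIGIT and the activating receptor CD226, and CD73 is an ectoenzyme that turns AMP into the immunosuppressive nucleoside adenosine. Copper chelation is known to lower PD-L1 in tumour cells, and transcripts are what was measured here, not surface protein.

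Total counts ran from 34633755 to 49342659 per library, and 16556 genes had enough reads to be tested, all 9 ligands among them. Replicates of a group differed by more than counting noise, with a chi-square per degree of freedom between 2.58 and 25.7, and untreated replicates 1 and 2 stood farthest apart. Of 7 markers of the line, all were well expressed, with VIM (vimentin) at 3674 ± 124 CPM (counts scaled to a common library size by TMM, SD, n = 3) in untreated cells. PGR and CDKN2A had 0 counts and ESR1 at most 9, whereas GATA3, listed as a marker the line should lack, was present at 10.6 ± 0.659 CPM. Of 11 immune cell markers, 5 had 0 counts in every library (CD3D, CD3E, CD4, MS4A1 and NKG7), and PTPRC, which encodes the leukocyte antigen CD45, had at most 5. CD8A, a T cell marker, was not absent, with up to 65 counts and 1.44 ± 0.0762 CPM in untreated cells. It was called lower at 24 h (log2 fold change -0.62, edgeR adjusted p = 0.0123). The summed CPM of the 11 was 4.97 to 7.46 in untreated cells, 2.33 to 2.90 at 8 h and 6.41 to 7.23 at 24 h. CD14 made most of that shift, at 3.85 ± 1.11, 0.763 ± 0.162 and 4.05 ± 0.626 CPM. The share of reads on mitochondrially encoded genes was 1.79% to 2.91% without TEPA, 3.61% to 4.02% at 8 h and 1.89% to 2.02% at 24 h. The part of these shifts in the differences at 8 h was not tested. No ligand call changed when mitochondrial genes were left out of the library sizes, a step that alters the scaling only and cannot decide that question.

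The ligands spanned a wide range of abundance. As CPM per kilobase of annotated exon, NT5E stood highest in untreated cells at 79.5 ± 1.81 (SD, n = 3), followed by NECTIN2 at 33.6 ± 2.61 and CD276 at 20.2 ± 1.48. PVR (8.54 ± 0.298), CD47 (6.59 ± 0.130), VSIR (4.74 ± 0.914) and CD274 (2.74 ± 0.296) lay in the middle, while PDCD1LG2 (0.656 ± 0.118) and LGALS9 (0.188 ± 0.0373) were scarce. Among neighbours in this order, 0 of 8 pairs overlapped in any group. The order shifted in one place at each time. At 8 h CD274, at 3.63 ± 0.153, stood above VSIR, at 2.13 ± 0.165. At 24 h CD47, at 8.11 ± 0.349, stood above PVR, at 5.39 ± 0.211. PVR's exon length, 10427 bases in GENCODE v44, includes exons shared with other annotated genes, and a level per kilobase depends on that length.

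**Figure D1:**
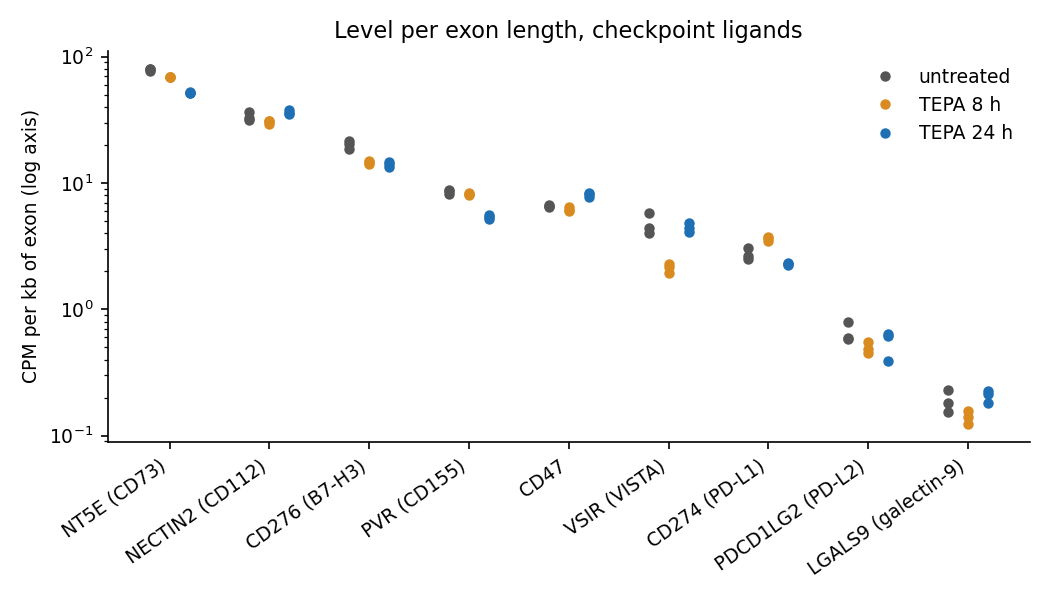
Level of each ligand transcript as CPM per kilobase of exon (vertical log axis), with 1 point per library and colours for untreated, TEPA 8 h and TEPA 24 h. NT5E lies between 52.0 and 79.5 by group mean and LGALS9 between 0.140 and 0.207, and CD274 and VSIR exchange places at 8 h.

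CD274, CD276 and NT5E were called at both times against untreated cells, and the share of all tested genes called at both was not computed. At 8 h, CD274 alone was higher than in untreated cells, and CD276, VSIR, NECTIN2 and NT5E were lower. Thus 5 of 9 passed the test (edgeR quasi-likelihood, Benjamini-Hochberg adjusted p under 0.05), where 49.6% of all tested genes did, 25.2% higher and 24.5% lower. At 24 h, CD47 alone was higher and CD274, CD276, PVR and NT5E were lower, again 5 of 9, beside 52.5% of all tested genes (25.7% higher and 26.8% lower). Between 24 h and 8 h, CD47, VSIR, NECTIN2 and LGALS9 were higher and CD274, PVR and NT5E lower, 7 of 9 beside 54.8% of all genes (26% higher and 28.8% lower). At 8 h and 24 h the share of ligands called was thus near the background. The median log2 fold change of the 9 was -0.20 at 8 h, -0.26 at 24 h and 0.13 between the times, beside -0.00, 0.00 and -0.02 over all tested genes. With a log2 fold change beyond 0.5 also required, 1 ligand (VSIR) remained at 8 h, where 17.8% of genes did, and 3 (CD276, PVR and NT5E) at 24 h, where 18.7% did. Between the times 4 remained (VSIR, LGALS9, CD274 and PVR), beside 21.2% of genes.

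**Figure D2:**
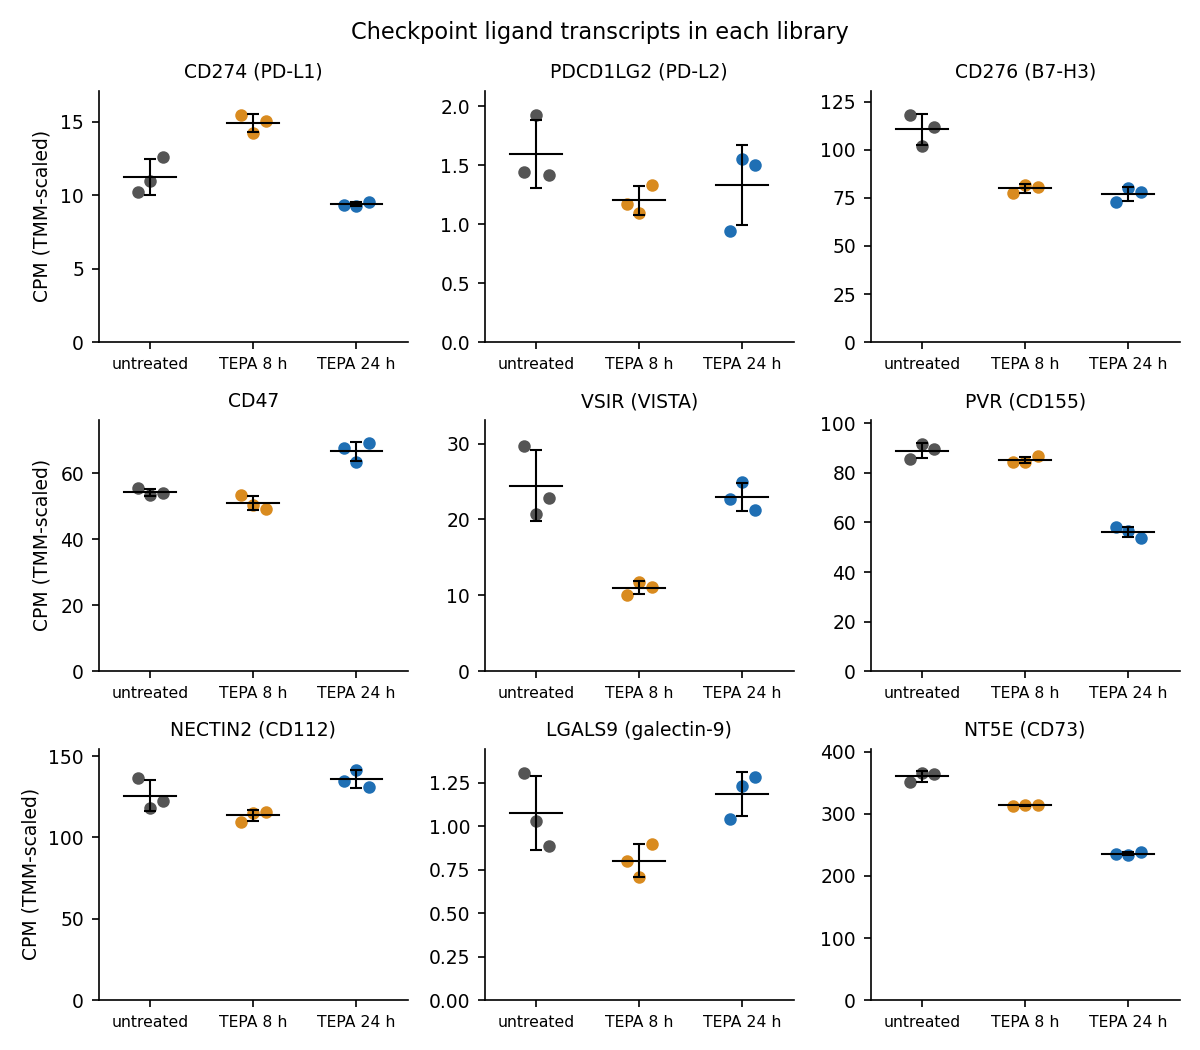
TMM-scaled CPM (vertical axis, from 0) of each ligand in the 9 libraries, with points for libraries, a long bar for the group mean and whiskers of 1 SD (n = 3). CD274 peaks at 8 h with a mean of 14.9, VSIR is lowest at 8 h, and NT5E steps down from 360.3 to 314 to 236.

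**Figure D3:**
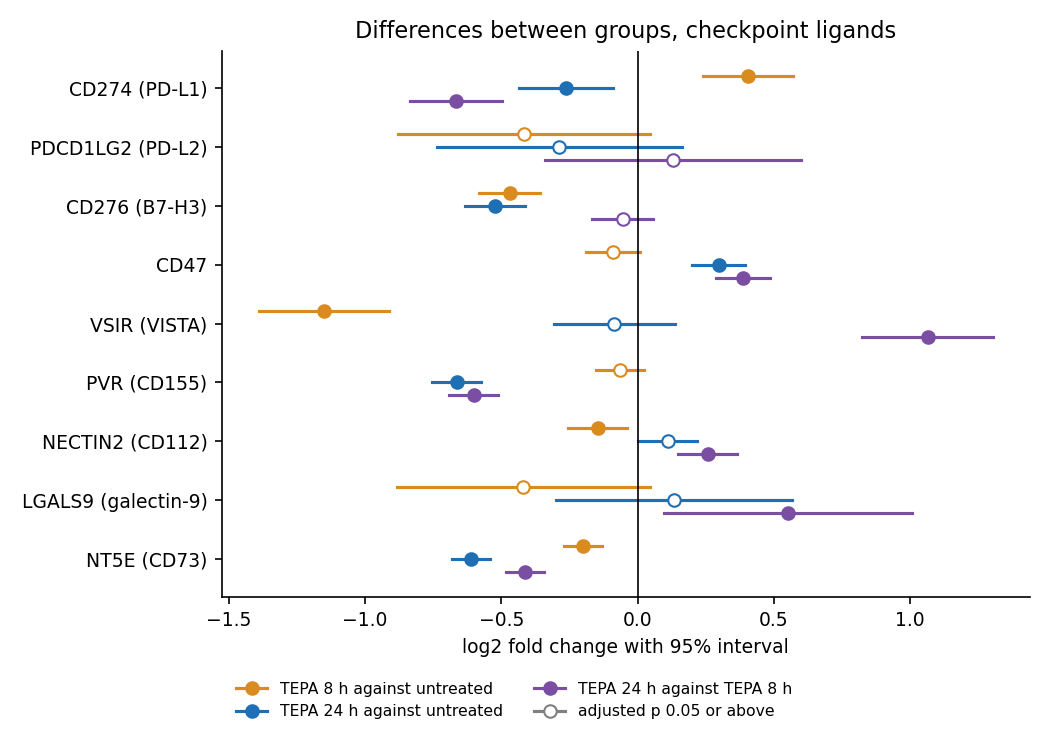
Log2 fold change of each ligand (horizontal axis) with its 95% interval in the 3 comparisons, filled where the adjusted p was under 0.05. CD274 lies at 0.41, -0.26 and -0.67, and VSIR runs furthest in both directions, from -1.15 to 1.07.

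CD274 (ENSG00000120217) lies on chromosome 9 at 5450503 to 5470566 of GRCh38, plus strand. Its transcript was higher at 8 h and then lower than in untreated cells at 24 h. It was measured at 10.2, 10.9 and 12.6 CPM in untreated libraries 1 to 3, from 384, 500 and 497 counts. The TEPA libraries held 15.4, 14.2 and 15.1 CPM at 8 h (618, 544 and 554 counts) and 9.36, 9.27 and 9.57 CPM at 24 h (477, 400 and 344 counts). The groups did not overlap in any of the 3 comparisons, in which 57.8%, 57.2% and 62% of all tested genes likewise did not overlap. CD274 rose by 32.4% at 8 h, a log2 fold change of 0.41 ± 0.0781 (SE, edgeR adjusted p = 4.82e-04). At 24 h it fell by 16.6%, a log2 fold change of -0.26 ± 0.0806 (edgeR adjusted p = 0.0123). Between 8 h and 24 h the log2 fold change was -0.67 (SE 0.0791, edgeR adjusted p = 3.4e-06). Without untreated replicate 3, the untreated library with the most CD274, the difference at 24 h was -0.18 and missed the threshold (edgeR adjusted p = 0.087).

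The bases just before CD274 and VSIR are shown because these genes, both of the B7 family, moved in opposite directions at 8 h. RefSeq promoter windows (GRCh38.p14, 250 bases before to 50 after each start) were at hand for 8 of the 9 ligands, PDCD1LG2 being the gene not matched. They were searched on both strands for the letters of 6 motifs: GAS (TTCNNNGAA, the interferon-gamma activated site), ISRE (GAAA, any 2 bases and GAAA again, bound by interferon regulatory factors), NF-kB (GGGA, any 2 bases, TTCC), HRE (ACGTG, hypoxia), AP-1 (TGANTCA) and MRE (TGCNCNC, metal response). The MRE letters searched are looser than the metal response core TGCRCNC, where R is A or G, so a match need not hold that core. Of 35116 windows, 7.66% held GAS, 3.57% ISRE, 1.61% NF-kB, 21.4% HRE, 7.71% AP-1 and 55.9% these loose MRE letters. Each stretch runs 5′ to 3′ on the gene's strand and ends at the base before the annotated gene, and capitals mark any of the 6 motifs.
CD274, chr9:5450292-5450502, plus strand: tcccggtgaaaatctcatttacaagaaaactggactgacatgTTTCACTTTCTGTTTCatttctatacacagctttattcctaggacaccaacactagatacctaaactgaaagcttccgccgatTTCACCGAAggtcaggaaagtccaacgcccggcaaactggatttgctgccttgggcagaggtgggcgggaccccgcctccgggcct
VSIR, chr10:71773521-71773770, minus strand: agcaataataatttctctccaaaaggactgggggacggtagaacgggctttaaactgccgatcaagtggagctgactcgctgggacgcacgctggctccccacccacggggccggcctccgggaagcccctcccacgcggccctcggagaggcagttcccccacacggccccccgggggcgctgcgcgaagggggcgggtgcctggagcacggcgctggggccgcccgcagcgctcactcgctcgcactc
In CD274 the first run of capitals holds 2 overlapping ISRE matches, at positions -208 and -202 from the RefSeq start, and the second is a GAS match at -125. No other ligand window held GAS, and the only other with ISRE was LGALS9, with 1 match at -9. The VSIR window held none of the 6. A match is a description of letters, not a site shown to be bound.

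PDCD1LG2 (chromosome 9, 5510531 to 5571282, plus strand) is the next ligand gene downstream of CD274 and was far scarcer. It had 54, 88 and 56 counts without TEPA, 47, 42 and 49 at 8 h and 48, 67 and 54 at 24 h, or 1.44, 1.93 and 1.42, then 1.17, 1.10 and 1.33, then 0.942, 1.55 and 1.502 CPM. All libraries at 8 h lay below all untreated ones, and the groups overlapped at 24 h. No change of PD-L2 was called: the log2 fold change was -0.42 at 8 h (95% interval -0.88 to 0.04, edgeR adjusted p = 0.125) and -0.29 at 24 h (-0.74 to 0.16, edgeR adjusted p = 0.274). These intervals are wide at this depth, and whether PD-L2 differed from PD-L1 in its response was not tested. Of 9 genes around CD274 on the chromosome, PDCD1LG2 included, 5 were tested and 0 were higher at 8 h, while 2 were lower, beside 49.6% of all genes called. These were PLGRKT, a plasminogen receptor, at -0.38 (edgeR adjusted p = 0.00446) and ERMP1, an endoplasmic reticulum metallopeptidase, at -0.37 (edgeR adjusted p = 7.45e-04). JAK2, the interferon receptor kinase, was at -0.07 at 8 h and 0.21 at 24 h and passed at neither. At 24 h PLGRKT was lower again, at -0.46 (edgeR adjusted p = 0.00108), and no other neighbour was called.

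Genes known to act on CD274 transcription moved in both directions. Of 18 such genes, 6 were higher and 8 lower at 8 h (median log2 fold change -0.11), beside 25.2% and 24.5% of all tested genes. At 24 h 4 were higher and 4 lower (median 0.07), beside 25.7% and 26.8%. IRF1, the interferon regulatory factor that drives CD274, was at 74.7, 68.3 and 71.3 CPM without TEPA, 49.7, 52.0 and 54.6 at 8 h and 96.8, 97.9 and 91.9 at 24 h. IRF1 was thus lowest where CD274 was highest and highest where CD274 was lowest, with no overlap between groups. The log2 fold change of IRF1 was -0.46 at 8 h (edgeR adjusted p = 1.49e-06) and 0.42 at 24 h (edgeR adjusted p = 1.7e-06). IFNGR2, a chain of the interferon-gamma receptor, fell by 0.69 on the log2 scale at 8 h and by 0.18 at 24 h. SOCS1, the inhibitor of JAK kinases, fell by 1.13 at 8 h (edgeR adjusted p = 8.7e-06) and was at 0.02 at 24 h. EGFR, a growth factor receptor whose signalling raises PD-L1, was higher and then lower, at 0.17 (edgeR adjusted p = 0.00999) and then -0.38 (edgeR adjusted p = 1.22e-05). HIF1A, the hypoxia factor, fell at both times, by 0.40 and 0.23, and MYC was at -0.10 at 8 h, which did not pass, and fell by 0.22 at 24 h (edgeR adjusted p = 0.00112). IRF2 was at -0.11 at 8 h, without passing, and rose by 0.25 at 24 h (edgeR adjusted p = 0.00225).

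**Figure D4:**
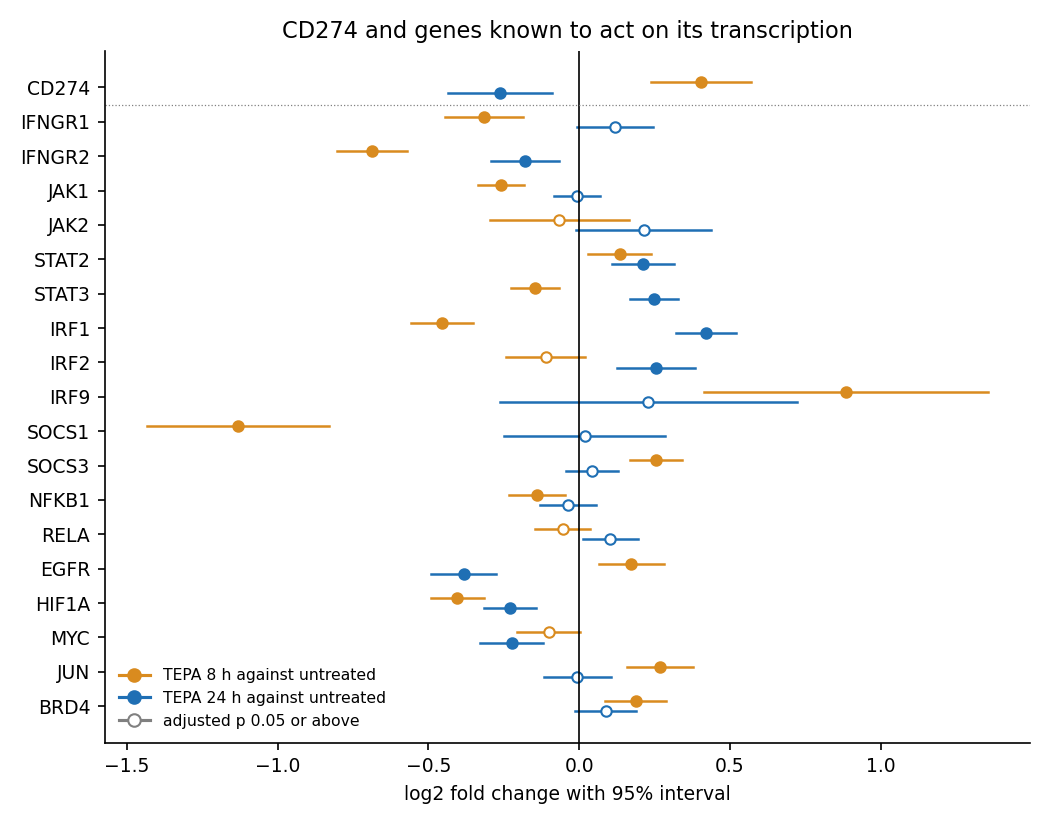
Log2 fold change (horizontal axis, with 95% interval) of CD274, above the dotted line, and of 18 genes known to act on its transcription, at 8 h and 24 h against untreated cells, filled where the adjusted p was under 0.05. At 8 h CD274 is at 0.41 while SOCS1, IFNGR2 and IRF1 are at -1.13, -0.69 and -0.46, and at 24 h CD274 is at -0.26 and IRF1 at 0.42.

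Genes that set the turnover of the PD-L1 protein moved in both directions. Of 17, all tested, 2 were higher and 3 lower at 8 h, where 49.6% of all genes were called, and 6 were higher and 5 lower at 24 h, where 52.5% were, with medians of -0.04 and -0.02. CMTM6, the membrane partner that spares PD-L1 from lysosomal breakdown, fell by 0.21 on the log2 scale at 8 h (edgeR adjusted p = 0.00289) and was at 0.10 at 24 h, which did not pass. HIP1R, which carries PD-L1 to the lysosome, rose by 0.59 at 8 h (edgeR adjusted p = 2.19e-07) and by 0.45 at 24 h (edgeR adjusted p = 2.42e-06). TRIM21, a ubiquitin ligase, went from -0.25 at 8 h to 0.34 at 24 h, both called. STT3A, a catalytic subunit of the N-glycosylation complex, was at -0.05 at 8 h and fell by 0.29 at 24 h (edgeR adjusted p = 2.2e-06).

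CD276 and VSIR, the other members of the B7 family in the set, both fell at 8 h, and they differed at 24 h in whether a fall was called. CD276 (chromosome 15, 73683966 to 73714514, plus strand) was at 118, 102 and 112 CPM without TEPA, 77.5, 81.7 and 80.5 at 8 h and 72.8, 80.2 and 77.9 at 24 h. Every treated library lay below every untreated one, and the TEPA groups overlapped each other. B7-H3 mRNA fell by 27.8% at 8 h (log2 fold change -0.47 ± 0.0524 SE, edgeR adjusted p = 2.79e-06) and fell by 30.4% at 24 h (-0.52, edgeR adjusted p = 6.09e-07). The difference between the times was -0.05, with a 95% interval of -0.17 to 0.06 (edgeR adjusted p = 0.4).

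VSIR (chromosome 10, 71747556 to 71773520, minus strand, inside CDH23 on the opposite strand, with no shared exon) had the largest change among the 9. It was at 29.7, 20.7 and 22.9 CPM without TEPA, 10.1, 11.8 and 11.1 at 8 h and 22.7, 24.9 and 21.2 at 24 h. All 8 h libraries were below all others, and at 24 h VISTA mRNA overlapped the untreated range. It fell by 55.0% at 8 h (log2 fold change -1.15 ± 0.113 SE, edgeR adjusted p = 7.5e-07) and rose by 1.07 from 8 h to 24 h (edgeR adjusted p = 1.02e-06). At 24 h against untreated cells the value was -0.09 (-0.31 to 0.14, edgeR adjusted p = 0.518), and its sign depended on untreated replicate 1, without which it was 0.08. VSIR is known in myeloid cells, and the myeloid markers moved unevenly. CD14 was lowest at 8 h, as was ITGAM at 0.604 ± 0.0935, 0.439 ± 0.185 and 1.41 ± 0.154 CPM (untreated, 8 h and 24 h), whereas CD68 was highest at 8 h, at 0.153 ± 0.0871, 0.329 ± 0.0758 and 0.216 ± 0.0965 CPM. Neither ITGAM nor CD68 was called at 8 h against untreated cells. PTPRC and LYZ had at most 5 counts in any library. The part of these markers in the course of VSIR was not tested.

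PVR and NECTIN2, both ligands of TIGIT and CD226 and both on chromosome 19 (PVR at 44643798 to 44666162, NECTIN2 at 44846175 to 44889223, both plus strand), parted at 24 h, when a fall was called for PVR only; the difference between these genes was not itself tested. PVR was at 85.7, 91.8 and 89.5 CPM without TEPA, 84.4, 84.6 and 86.8 at 8 h and 58.2, 56.5 and 53.8 at 24 h. At 8 h it overlapped untreated cells, at -0.06 (95% interval -0.15 to 0.03, edgeR adjusted p = 0.227), and at 24 h it fell by 36.9%, with no overlap (log2 fold change -0.66 ± 0.0422 SE, edgeR adjusted p = 4.52e-09). From 8 h to 24 h the log2 fold change was -0.60 (edgeR adjusted p = 1.39e-08). PVR shares 121 exon bases with CEACAM19 and 2028 with an unnamed gene on the same strand. Reads from these bases cannot be assigned with certainty and may not have been counted.

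NECTIN2 took a shallow dip instead. It was at 137, 118 and 123 CPM without TEPA, 109.8, 115 and 116 at 8 h and 135, 142 and 131 at 24 h. The 8 h libraries lay below all others, whereas the untreated and 24 h libraries overlapped. It fell by 9.64% at 8 h (log2 fold change -0.15 ± 0.0511 SE, edgeR adjusted p = 0.0262), a small difference that missed the threshold without untreated replicate 1 (-0.08, edgeR adjusted p = 0.117) or without TEPA 8 h replicate 1 (-0.13, edgeR adjusted p = 0.0875). At 24 h it was at 0.11 (0.00 to 0.22, edgeR adjusted p = 0.078). Without untreated replicate 1 this became 0.17 and was called (edgeR adjusted p = 0.00225). The rise from 8 h to 24 h, 0.26 on the log2 scale (edgeR adjusted p = 4.83e-04), was called in every alternative except the fold limit of 0.5, which it does not reach.

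The stretches before these 2 genes are shown because the pair shares receptors and only PVR was called lower at 24 h. Capitals again mark any of the 6 motifs.
PVR, chr19:44643660-44643797, plus strand: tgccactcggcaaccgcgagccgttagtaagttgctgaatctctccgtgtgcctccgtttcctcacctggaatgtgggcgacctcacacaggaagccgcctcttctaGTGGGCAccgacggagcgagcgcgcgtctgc
NECTIN2, chr19:44846047-44846174, plus strand: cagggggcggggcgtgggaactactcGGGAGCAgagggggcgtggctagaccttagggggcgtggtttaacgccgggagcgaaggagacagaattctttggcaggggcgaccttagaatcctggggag
Each held a match to the loose MRE letters, PVR at -143 and NECTIN2 at -224 from the RefSeq start. Read on the opposite strand, these are TGCCCAC and TGCTCCC, so neither holds the core TGCRCNC. NECTIN2 had another loose match at -20, beyond the stretch printed. Matches of the loose MRE letters were also found in the windows of CD47 (3), NT5E (1) and the second of 2 windows of CD276 (2), against a share of 55.9% of all windows. HRE was found in those of CD47 and CD276 (1 each).

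CD47 (chromosome 3, 108043091 to 108091862, minus strand) was the only one of the 9 with a called rise at 24 h. It was at 55.4, 53.3 and 54.2 CPM without TEPA, 53.5, 50.5 and 49.1 at 8 h and 67.7, 63.5 and 69.1 at 24 h. Untreated and 8 h libraries overlapped, and all 24 h libraries were above both. CD47 rose by 22.9% at 24 h (log2 fold change 0.30 ± 0.0457 SE, edgeR adjusted p = 5.07e-05) and by 0.39 from 8 h to 24 h (edgeR adjusted p = 3.48e-06). At 8 h it was at -0.09 (95% interval -0.19 to 0.01, edgeR adjusted p = 0.126), which passed only when TEPA 8 h replicate 1 was left out (-0.13, edgeR adjusted p = 0.0491). Of 8 genes of the CD47 axis, 2 were higher and 3 lower at 8 h, beside 49.6% of all genes called, and 3 were higher and 3 lower at 24 h, beside 52.5%. THBS1, the secreted CD47 ligand thrombospondin-1, rose by 0.85 on the log2 scale at 8 h (edgeR adjusted p = 3.22e-08) and by 0.51 at 24 h (edgeR adjusted p = 3.62e-06). SIRPA, the CD47 receptor, which these cells express themselves, was at -0.20 at 8 h (edgeR adjusted p = 0.0773) and fell by 1.29 at 24 h (edgeR adjusted p = 2.78e-08), from 8.12 ± 0.417 to 3.35 ± 0.245 CPM. CALR, calreticulin, the "eat me" signal that CD47 offsets, fell at both times, by 0.39 and 0.36. B2M, the MHC class I light chain and also an inhibitory signal to macrophages, fell by 0.23 at 8 h (edgeR adjusted p = 3e-04) and was at 0.04 at 24 h, which did not pass.

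LGALS9 (chromosome 17, 27629798 to 27649560, plus strand), a ligand of TIM-3, was the scarcest and is the least certain. It had 49, 47 and 35 counts without TEPA, 32, 27 and 33 at 8 h and 53, 53 and 46 at 24 h, or 1.31, 1.03 and 0.888, then 0.800, 0.706 and 0.898, then 1.04, 1.23 and 1.28 CPM. The untreated libraries overlapped both TEPA groups, which did not overlap each other. The log2 fold change was -0.42 at 8 h (95% interval -0.88 to 0.05, edgeR adjusted p = 0.126) and 0.13 at 24 h (-0.30 to 0.57, edgeR adjusted p = 0.61). Only the difference between the times was called, at 0.55 (edgeR adjusted p = 0.0392). It was lost with DESeq2 (adjusted p = 0.108) and without TEPA 8 h replicate 1 or 2 or TEPA 24 h replicate 2 or 3 (edgeR adjusted p from 0.0817 to 0.125). Its near-identical copies LGALS9B and LGALS9C, named for their likeness and not by the rule for other genes, averaged 17.4 and 16.4 counts. The study lists no setting that counts reads fitting several places, so reads common to the 3 may not have been counted. Between the times both were higher at 24 h, by 1.96 and 2.27 on the log2 scale. LGALS9 also shares 294 exon bases with another gene on its strand.

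NT5E (chromosome 6, 85449584 to 85495791, plus strand) was the most abundant ligand transcript and fell in steps. It was at 351, 365 and 365 CPM without TEPA, 313, 314 and 314 at 8 h and 236, 234 and 238 at 24 h. No groups overlapped, and the spread within each was small beside the steps. CD73 mRNA fell by 12.9% at 8 h (log2 fold change -0.20 ± 0.0328 SE, edgeR adjusted p = 1.18e-04) and fell by 34.5% at 24 h (-0.61 ± 0.0330 SE, edgeR adjusted p = 7.92e-10). From 8 h to 24 h it fell by 24.8% (-0.41, edgeR adjusted p = 5.35e-08). Of the 3 comparisons, CD274 and NT5E were the only ligands called in all. In each comparison alone, 49.6%, 52.5% and 54.8% of all tested genes were called. The share of all genes called in all 3 was not computed, so nothing is read from this count.

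Of 19 genes that make, carry and sense adenosine, 15 were tested. At 8 h 2 were higher and 7 lower (median log2 fold change -0.06), beside 49.6% of all tested genes called in either direction, and at 24 h 2 were higher and 6 lower (median -0.18), beside 52.5%, a share near the background. ENTPD1 (CD39), the enzyme that supplies CD73 with AMP on immune cells, had at most 2 counts in any library. ENPP1, another ectoenzyme that yields AMP, was present at 38.7 ± 1.91 CPM in untreated cells. It was lower at 8 h (-0.17, edgeR adjusted p = 0.00704) and higher at 24 h (0.32, edgeR adjusted p = 3.74e-05). SLC29A2, a nucleoside transporter at 8.90 ± 1.37 CPM in untreated cells, fell by 0.80 on the log2 scale at 8 h (edgeR adjusted p = 2.12e-05) and by 1.33 at 24 h (edgeR adjusted p = 1.04e-07). The far more abundant transporter SLC29A1, at 113 ± 2.39 CPM, was called higher at 8 h (0.12, edgeR adjusted p = 0.0301). At 24 h SLC29A1 was lower (-0.34, edgeR adjusted p = 5.96e-06). ADORA1, an adenosine receptor at 4.39 ± 0.394 CPM in untreated cells, fell by 1.44 at 8 h (edgeR adjusted p = 1.03e-06) and was at -0.20 at 24 h, which did not pass. ADORA2B, the most abundant adenosine receptor transcript at 191 ± 13.2 CPM, was at 0.04 at 8 h (edgeR adjusted p = 0.468). At 24 h ADORA2B was called lower (-0.18, edgeR adjusted p = 0.00299). ADA, which degrades adenosine, was at 0.14 at 8 h, without passing, and fell by 0.61 at 24 h (edgeR adjusted p = 3.56e-04). The cytosolic nucleotidase NT5C was at -0.06 at 8 h and fell by 0.45 at 24 h (edgeR adjusted p = 5.77e-07), whereas NT5C2 fell by 0.24 at 8 h (edgeR adjusted p = 6.67e-04) and was at 0.06 at 24 h.

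Beyond the 9, 28 further checkpoint and costimulatory ligands were read, of which 18 were tested and 7 had 3 counts or fewer in every library. At 8 h, 3 of the 18 were higher and 9 lower (median log2 fold change -0.41), beside 25.2% and 24.5% of all tested genes. At 24 h 5 were higher and 4 lower (median 0.19), beside 25.7% and 26.8%, so that the share called was near the background. NECTIN1, a cell adhesion molecule of the nectin family, rose by 0.16 at 8 h (edgeR adjusted p = 0.0161) and fell by 1.05 at 24 h (edgeR adjusted p = 4.93e-10). NCR3LG1 (B7-H6), the ligand of the NK cell receptor NKp30, rose at both times, by 0.48 and 0.92, and so did TNFRSF14 (HVEM), the ligand of BTLA, by 0.47 and 0.62. BTN3A1, the butyrophilin sensed by gamma-delta T cells, fell by 0.54 at 8 h (edgeR adjusted p = 9.03e-05) and rose by 0.24 at 24 h (edgeR adjusted p = 0.0194). LGALS8, galectin-8, likewise went from -0.48 to 0.14, both called.

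Transcripts of most receptors for these ligands were scarce. Of 22 receptors, 6 were tested and 11 had 3 counts or fewer in every library. SELPLG, TNFRSF9 and SIRPA were not scarce, with means of 11.1, 8.20 and 8.12 CPM in untreated cells. TIGIT and CTLA4 had 0 counts, PDCD1 (PD-1) at most 4 and HAVCR2 (TIM-3) at most 11. At 8 h 1 was higher and 3 lower, beside 49.6% of all genes called, and at 24 h 1 was higher and 2 lower, beside 52.5%. TNFRSF9 (4-1BB) fell by 1.54 on the log2 scale at 8 h (edgeR adjusted p = 2.25e-06) and rose by 0.42 at 24 h (edgeR adjusted p = 0.0217). SELPLG (PSGL-1), a receptor of VISTA, fell by 1.17 at 8 h (edgeR adjusted p = 3.32e-06) and was at 0.28 at 24 h (edgeR adjusted p = 0.0593). CD96, a receptor of PVR, was lower at both times, at -0.71 and -0.60 on the log2 scale. The summed CPM of the 22 receptors was 29.8 to 41.8 without TEPA, 19.8 to 21.7 at 8 h and 32.8 to 34.4 at 24 h.

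For the ligands called in all 3 comparisons, the transcripts of closest course over the 9 libraries were sought among 11920 genes by Pearson correlation of log2 CPM, as a description. The libraries fall into 3 groups, so that a high value mainly says that group means keep the same spacing. Closest to CD274 were UBE2MP1 (r = 0.994), a pseudogene that may share reads with its parent gene, TICRR (0.989), a replication initiation factor, AC132008.2 (0.987), EPB41L2 (0.986) and DEPDC1B (0.985). TICRR came nearest to CD274 in size as well, at 0.40 at 8 h and -0.22 at 24 h. Closest to NT5E were IL11 (0.997), a cytokine, R3HCC1 (0.997), PTH1R (0.997), the parathyroid hormone receptor, WDR75 (0.996) and TCHP (0.996), with log2 fold changes at 24 h of -0.94, -1.60, -1.67, -0.78 and -0.80.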

How the data were processed

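RNA-Seq libraries of MDA-MB-231 cells, 3 per group, were analysed. Per the study's methods and the submitters' processing notes, the authors ran FastQC on the reads and HISAT2 for alignment to hg38, and featureCounts then assigned read pairs, by strand, to the exons of each gene name in the Ensembl GRCh38 annotation (tool versions not given in the sources used here). The deposited values are raw counts, not normalized, for 59453 gene names, and all columns were used.

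The edgeR package (4.0.16, R 4.3.3) filtered genes by filterByExpr (minimum count 10) and applied TMM factors (0.978 to 1.04), and all 9 libraries entered a single quasi-likelihood fit (biological coefficient of variation 0.0481). Benjamini-Hochberg adjustment covered 16556 genes, with calls under 0.05. Each standard error is the fold change on the log2 scale over the root of its F, and intervals are at 95%. Depth limits the scarce ligands most, and intervals over so few libraries also carry counting error. Permutation of 3 against 3 libraries cannot go below 0.1, so none was used.

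Positions are from GENCODE v44 and promoters from RefSeq. CPM are TMM-scaled. The members and gene lists were chosen with earlier results of these data known. Within each list, up to 3 called genes per comparison with the largest log2 fold change and a mean of at least 100 counts were named, plus IRF1, JAK2, MYC, HIF1A, CMTM6, PLGRKT, ENTPD1 and SIRPA. CD8A, SLC29A1, ADORA2B and ENPP1 were also named, after their values were seen. Some genes of the lists are not reported here and are left out of their counts. Steps were tested on simulated data. Alternatives were RLE, upper-quartile and no scaling factors, DESeq2 1.42.0, other filters, a fold limit, a replicate block and leaving out each library. Correlations of same-numbered deviations from the group means ran from -0.100 to 0.0818, beside -0.148 to 0.137 for other pairs. With 3 libraries per group these cannot show whether replicate numbers stood for matched cultures.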

Additional observations from a re-analysis of the deposited data

Results flagged for a closer look

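The results below are those where cells treated for 24 h differed from cells treated for 8 h by a direct test (edgeR, 24 h against 8 h, adjusted p under 0.05). Values are log2 fold changes between the TEPA groups. A single untreated group served for both times, so time in culture and time in TEPA cannot be told apart in these differences. Beside them, 54.8% of all tested genes differed between the times.

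Of the 9 ligands, 7 were among them. CD274 (-0.67), PVR (-0.60) and NT5E (-0.41) were lower at 24 h than at 8 h, and VSIR (1.07), LGALS9 (0.55), CD47 (0.39) and NECTIN2 (0.26) were higher.

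Among genes acting on CD274 transcription, SOCS1 (1.15), IRF1 (0.88), IFNGR2 (0.51), IRF2 (0.37), JAK2 (0.28) and HIF1A (0.17) were higher at 24 h than at 8 h. In all 10 of the 18 were higher and 5 lower. The latter were EGFR (-0.56), MYC (-0.12), IRF9 (-0.66), JUN (-0.27) and SOCS3 (-0.21), the last 3 named after their values were seen. Like CD274, EGFR, IRF9, JUN and SOCS3 were called higher at 8 h than in untreated cells. At 24 h against untreated cells CD274 and EGFR were called lower, whereas IRF9 (0.23), JUN (-0.006) and SOCS3 (0.04) were not called. IRF9 averaged 45.7 counts, below the minimum otherwise set for named genes. Among genes of PD-L1 protein turnover, TRIM21 (0.59) and CMTM6 (0.31) were higher, and OTUB1 (-0.27), a deubiquitinase, STT3A (-0.24) and HIP1R (-0.14) were lower. The neighbour ERMP1 was higher (0.36).

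Of other ligands and receptors, TNFRSF9 (1.96), SELPLG (1.45), BTN3A1 (0.78), LGALS8 (0.62) and NCR3LG1 (0.44) were higher, whereas NECTIN1 (-1.22) and SIRPA (-1.09) were lower. Around CD47, B2M (0.27) was higher and THBS1 (-0.34) lower, though still above untreated cells. In the adenosine list, ADORA1 (1.24) and NT5C2 (0.29) were higher, and ADA (-0.76), SLC29A2 (-0.53) and NT5C (-0.38) lower.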

How the results depend on the processing

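Across the 27 ligand differences and their alternatives, 469 of 486 values kept direction and side of the threshold, and 19 of the 27 differences did so throughout. With a log2 fold change beyond 0.5 required, ligands called numbered 1, 3 and 4 (8 h, 24 h, between times) in place of 5, 5 and 7, and all genes 2943, 3095 and 3505 in place of 8216, 8688 and 9079. Leaving out 1 library moved CD274 between 0.34 and 0.49 at 8 h, -0.32 and -0.18 at 24 h and -0.70 and -0.64 between times. Its call at 24 h was lost without untreated replicate 3 (-0.18, edgeR adjusted p = 0.087). Signs that changed belonged to differences not called: PDCD1LG2 between times (-0.0057 without TEPA 24 h replicate 2, range -0.0057 to 0.35), VSIR at 24 h (0.0761 without untreated replicate 1, range -0.20 to 0.0761) and CD276 between times (0.0170 with library totals only). NECTIN2 at 24 h was called with upper-quartile factors (0.14) and library totals only (0.17). LGALS9 between times was lost with no filter (edgeR adjusted p = 0.0586). Library totals only raised the share of higher calls from 48.95% to 59.4% at 24 h and from 47.46% to 59.64% between times, and moved the median log2 fold change of all genes from 0.00 to 0.06 and from -0.02 to 0.06. The causes were not tested. Leaving out mitochondrial genes, chosen after seeing the data, gave CD274 at 0.40, -0.26 and -0.66.

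With the replicate block, 5, 5 and 6 ligands and 7779, 8355 and 8758 genes were called, and CD274 was at 0.41, -0.26 and -0.67. Only 2 libraries correlated best with their own number, which cannot show whether the numbers stood for matched cultures. The block changed the call of LGALS9 between times alone (edgeR adjusted p = 0.0586).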
